A study of Drosophila melanogaster with 3 samples.

Results

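The genes described here encode the ecdysone receptor and early and later transcription factors that act below it in the steroid cascade of Drosophila melanogaster. They were chosen by gene symbol, and all 10 of the chosen genes were found among the 17278 FlyBase genes with a value. The members are EcR, usp, br, Eip74EF, Eip75B, Eip78C, Hr4, Hr39, ftz-f1 and Eip93F. Their messenger RNA was measured in salivary glands of third-instar larvae (stage L3), in 3 libraries of poly(A) RNA that form 1 control group. Each library was made from 50 dissected glands of flies kept at 25 °C, with 500 ng of RNA as input. Sample titles give an Oregon wild-type stock, whereas the genotype field of the same samples reads yw, so the genotype of these controls is uncertain. No treatment, transgene or mutant group enters the comparisons below. Separate cultures are not stated for the 3 libraries, and the tests below therefore measure only a spread that could be technical.

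Ecdysone is the steroid that times molting and metamorphosis in insects. Its active form binds a heterodimer of the nuclear receptors EcR and usp, which switches on a small set of early regulators, and these in turn control large sets of late genes. In polytene salivary glands the early genes were first recognised as chromosome puffs that swell within a short time of hormone exposure. The same gland first makes glue proteins during the larval stage, expels them when the hormone rises before pupariation, and is destroyed in the pupa after a further pulse. Eip74EF, Eip75B and br are classic early genes, Eip78C, Hr4 and Hr39 respond early but with some delay, and ftz-f1 and Eip93F are known for the later prepupal and pupal steps.

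Values are FPKM, fragments normalised for gene length and sequencing depth, as deposited. Whole fragments per gene were recovered from them. For a gene of 2000 bases, each fragment adds 0.687 FPKM in replicate 2 and 0.529 FPKM in replicate 3, and 1.0 FPKM in replicate 1. The libraries held 678714, 874004 and 1185541 fragments outside rRNA genes, with rRNA at 55.0%, 41.4% and 24.6% of all fragments. All 10 salivary gland markers, among them sage, fkh and the Sgs glue genes, were at 1 FPKM or more in every library. So were all 7 fat body markers, with a summed level between 2886 and 4279 FPKM, against 732556 to 983307 FPKM for the gland markers. The gland sum rests largely on glue genes, with Sgs7 alone at a mean of 311039 FPKM. By mean, sage had 723 and fkh 64.1 FPKM, below the fat body gene Fbp1 at 926 FPKM. Of hemocyte and muscle markers, 2 of 5 and 3 of 5 met the limit in every library. Over all genes, 33.1% met that limit of 1 FPKM. Intervals given below are exact 95% intervals for counting error only.

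Both subunits of the receptor were present at similar levels in every library. EcR (FBgn0000546, BDGP6.54 2R 6087873 to 6169087), the hormone-binding subunit, had 52.6, 40.7 and 29.5 FPKM in replicates 1, 2 and 3, from 261, 294 and 277 fragments. The gene usp (FBgn0003964, X 2038798 to 2042311), whose product is the fly's RXR-type partner of EcR, had 38.2, 36.2 and 24.7 FPKM from 58, 80 and 71 fragments. Replicate 3 was the lowest library for both genes, and EcR lay above usp in each of the 3 libraries. The means were 40.9 ± 11.5 FPKM for EcR and 33.0 ± 7.27 FPKM for usp (SD, n = 3). On the log2(FPKM + 1) scale, with a pseudocount of 1, EcR minus usp was 0.45, 0.16 and 0.25, with a mean of 0.29 ± 0.15 (SD, n = 3). The two-sided exact sign-flip permutation test gave p = 0.25, the smallest that 3 libraries allow, and an adjusted p of 0.375 over the 3 pairs of genes compared. Per exon base, the ratio of summed fragments was 1.22 (1.04 to 1.42). Of the exon bases of usp, 8.72% lie in exons of Actn or CG4313, and EcR shares none with another gene. Actn, on the same strand as usp, had 57.0 ± 3.76 FPKM, while CG4313 lies on the opposite strand and counting was unstranded. The level of usp is therefore the less certain of the pair.

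Among the early genes, br and Eip74EF were the highest members in replicates 1 and 3, and Eip78C exceeded both in replicate 2. The gene br (FBgn0283451, X 1575132 to 1664869), which encodes a family of BTB and zinc finger proteins needed for glue and late gene expression, had 94.98, 78.0 and 39.7 FPKM. Its fragments, 959, 1146 and 759, are approximate, since its annotated exon length did not give whole numbers. Eip74EF (FBgn0000567, 3L 17558672 to 17619325), which encodes ETS-domain transcription factors, had 92.8, 94.3 and 37.3 FPKM from 433, 640 and 329 fragments. Both genes were lowest in replicate 3, and their counting intervals overlapped in replicates 1 and 3 but not in replicate 2, where Eip74EF was higher. Eip74EF minus br was -0.03, 0.27 and -0.09 on the log2(FPKM + 1) scale, with a mean of 0.05 ± 0.19 (SD, n = 3). The exact sign-flip test gave p = 1.0 with n = 3, an adjusted p of 1.0, and Eip74EF was the higher gene in 1 of 3 libraries. Without replicate 2 the sign turned, to -0.06. The ratio of summed fragments per exon base was 1.06 (0.993 to 1.13), so a difference between both genes was not detectable beyond their spread.

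Eip75B (FBgn0000568, 3L 17950953 to 18064696), which encodes heme-binding nuclear receptors that repress transcription, was less even. It had 44.8, 62.2 and 8.26 FPKM in replicates 1, 2 and 3, from 301, 609 and 105 fragments. Replicate 3 stood apart as low, outside the counting intervals of the other libraries (6.75 to 9.99 FPKM, against 39.9 to 50.1 in replicate 1 and 57.4 to 67.4 in replicate 2). The mean was 38.4 ± 27.5 FPKM (SD, n = 3).

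Eip78C and Hr4 differed between libraries more than any other members. Eip78C (FBgn0004865, 3L 21226609 to 21266503), a nuclear receptor gene related to Eip75B, had 39.1, 119 and 0.180 FPKM from 115, 507 and 1 fragment. It was the highest member in replicate 2, where its interval ran from 108 to 129 FPKM, and the eighth-highest in replicate 3, where the interval ran from 0.00456 to 1.002 FPKM. Hr4 (FBgn0264562, X 1941940 to 2007956), an orphan nuclear receptor gene, had 12.5, 20.9 and 0.0761 FPKM from 87, 211 and 1 fragment. In replicate 3 it was the lowest of the 10 members, with an interval from 0.00193 to 0.424 FPKM. Their means of 52.6 ± 60.3 and 11.2 ± 10.5 FPKM (SD, n = 3) therefore describe no library well. Hr39 (FBgn0261239, 2L 21237250 to 21259675), a nuclear receptor gene related to ftz-f1, had 17.3, 35.6 and 6.15 FPKM from 43, 129 and 29 fragments. Replicate 2 was again the high library and replicate 3 the low one, and the 3 counting intervals did not overlap.

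The regulators of later stages were at or near the floor. The competence factor gene ftz-f1 (FBgn0001078, 3L 18750607 to 18801309), whose product prepares tissues for the prepupal hormone pulse, had 1.17, 0.801 and 1.36 FPKM from 5, 5 and 11 fragments. It was the only member with its highest value in replicate 3, but the intervals of the 3 libraries overlapped (0.378 to 2.72, 0.260 to 1.87 and 0.677 to 2.43 FPKM). Of its exon bases, 29.4% lie in exons of a long non-coding RNA gene on the same strand, so part of these few fragments may not be its own. Eip93F (FBgn0264490, 3R 21949114 to 22014539), which encodes a transcription factor needed for destruction of the gland in the pupa, had 0.158, 0.108 and 0.0834 FPKM, resting on 1 fragment per library. Upper bounds for Eip93F were 0.879, 0.604 and 0.464 FPKM.

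Hr39 exceeded its relative ftz-f1 in every library, by 3.08, 4.34 and 1.60 on the log2(FPKM + 1) scale. The mean difference was 3.01 ± 1.37 (SD, n = 3), higher in 3 of 3 libraries, with an exact sign-flip p of 0.25, again the smallest possible, and an adjusted p of 0.375. Per exon base, Hr39 had 16.5 times the fragments of ftz-f1 (10.5 to 27.2).

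**Figure D1:**
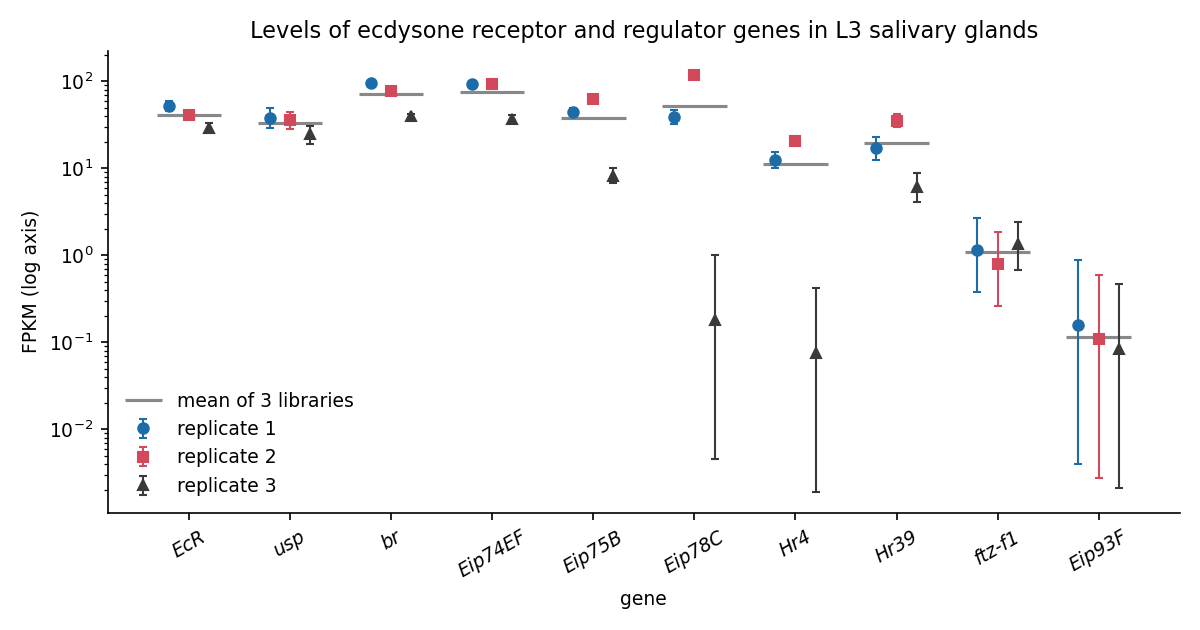
FPKM on a log axis of the 10 genes in the 3 control libraries, with exact 95% counting intervals as bars and a grey line at the mean of each gene. Eip78C and Hr4 sit at 0.180 and 0.0761 FPKM in replicate 3 but at 12.5 FPKM or more in the other libraries, while ftz-f1 and Eip93F are low in each library.

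By mean level the order was Eip74EF, br, Eip78C, EcR, Eip75B, usp, Hr39, Hr4, ftz-f1 and Eip93F. Only the last step, from ftz-f1 at 1.11 ± 0.282 FPKM to Eip93F at 0.116 ± 0.0378 FPKM, was wider than the larger SD of the neighbours (SD, n = 3). Every other pair of neighbours in this order lay within that spread. The highest member, Eip74EF, ranked 667 among the 17278 genes by mean FPKM, and br ranked 698. EcR ranked 1130, usp 1320, Hr4 2967, ftz-f1 6962 and Eip93F 9874. Members at 1 FPKM or more in every library were EcR, usp, br, Eip74EF, Eip75B and Hr39, that is 6 of 10, where 33.1% of all genes met this limit. The members that missed it did so in different ways: Eip78C and Hr4 in replicate 3 alone, ftz-f1 in replicate 2 alone, and Eip93F in each library. The median of the members' mean log2(FPKM + 1) was 4.53, against 0.37 over all genes.

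The members varied most between replicate 3 and the other libraries. Among members with a mean of 10 FPKM or more, which were 8 of the 10, the range of log2(FPKM + 1) over the libraries was 1 or more in 6, where 32.4% of the 3193 genes at that level had such a range. It was 6.66 for Eip78C, 4.35 for Hr4, 2.77 for Eip75B, 2.35 for Hr39, 1.32 for Eip74EF and 1.24 for br. EcR and usp stayed within 0.81 and 0.61. Without replicate 3, Eip78C and Hr39 were the only members with a range of 1 or more (2 of 8, where 10.01% of genes had one). The 8 members were each lowest in replicate 3, where 35.9% of genes at that level were. Eip74EF, Eip75B, Eip78C, Hr4 and Hr39 were in addition highest in replicate 2, an order found for 21.4% of those genes. EcR, usp and br were highest in replicate 1 as deposited and in replicate 2 as TPM.

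Eip74EF, Eip75B, Eip78C, Hr4 and Hr39 were under 50% of the lower of the other libraries in replicate 3, that is 5 of 8 members, where 9.4% of genes were. Their replicate 3 level was 0.402, 0.184, 0.00460, 0.00608 and 0.357 times the lower of the others, in that order, and br just missed the limit at 0.509. Eip78C had the fifth-largest such drop on the log2(FPKM + 1) scale of the 3193 genes, at -5.09, and Hr4 ranked 24 at -3.65. Ranks were 74 for Eip75B, 181 for Hr39, 195 for Eip74EF, 299 for br, 496 for usp and 552 for EcR. A single fragment or none in replicate 3 was found for 1.44% of genes at that level, and Eip78C and Hr4 were among them. This pattern was known from earlier results of these data when the limit was set, so the counts are a description.

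**Figure D2:**
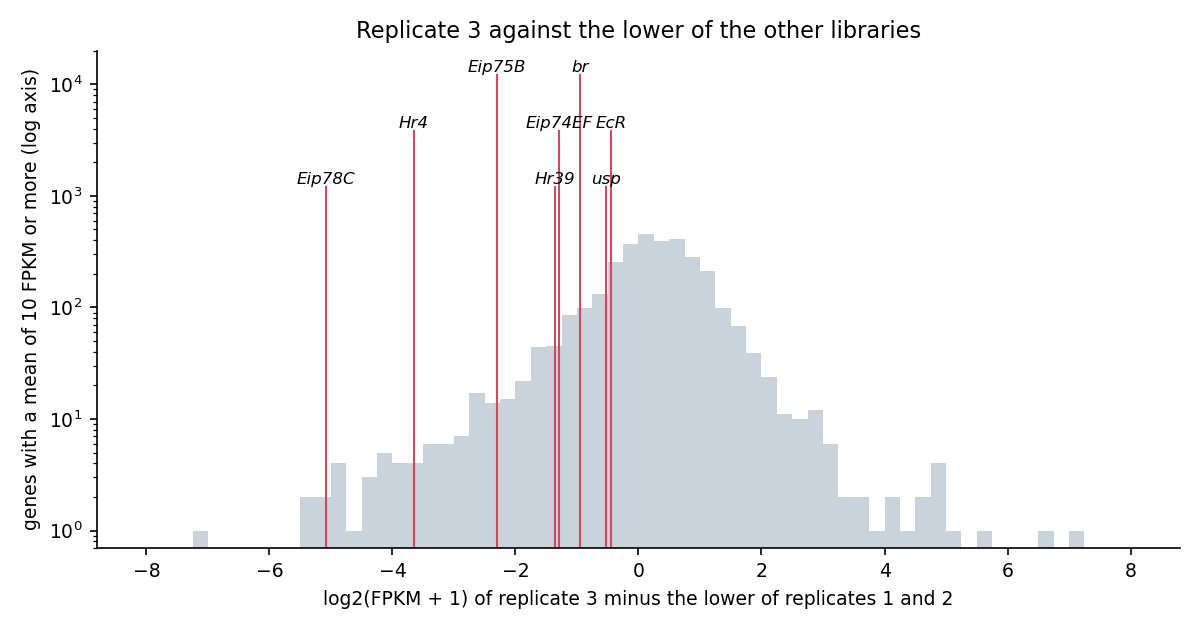
Histogram on a log count axis of 3193 genes with a mean of 10 FPKM or more, by log2(FPKM + 1) of replicate 3 minus the lower of replicates 1 and 2. Red lines mark the 8 members at that level, from Eip78C at -5.09 to EcR at -0.45, all to the left of the median gene at 0.25.

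Rescaling a library changes every gene in it by the same factor, so it matters where a value lies near a limit. The FPKM of the median gene differed little between libraries, with shifts of 0.023, -0.035 and 0.045 on the log2 scale. After rescaling to TPM it lay at -0.39, 0.08 and 0.31 relative to its mean over the libraries. The TPM factors of 0.366, 0.530 and 0.587 in replicates 1, 2 and 3 also lowered every value, while the limit of 10 stayed fixed. As TPM, 2 members (Eip75B and Eip78C) were under 50% of the lower of the other libraries in replicate 3, where 5.62% of genes were. Hr4 then fell below the mean of 10 that the count requires, Eip74EF missed the fold, and Hr39 missed both. The range of 1 or more was then found for 3 of the 6 members left (Eip74EF, Eip75B and Eip78C), about the share of all genes, 51.55%. Under the same rescaling usp was no longer lowest in replicate 3, while EcR, br, Eip74EF, Eip75B, Eip78C, Hr4, Hr39 and Eip93F still were. With rescaling by median ratios, 6 of 8 members were low in replicate 3, with br added, where 9.67% of genes were.

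Other measures moved with the libraries as well. The summed level of the fat body markers was 2886, 4102 and 4279 FPKM in replicates 1, 2 and 3, but its members disagreed. Fbp1, a storage protein receptor gene that is itself ecdysone-inducible in fat body, had 1037, 1468 and 272 FPKM, whereas Lsp1alpha had 270, 298 and 979 FPKM. Summed gland markers were 983307, 732556 and 832378 FPKM, and the rRNA share was highest in replicate 1 and lowest in replicate 3. The part of tissue make-up, rRNA content and depth in the differences between libraries was not tested. In these pooled glands, fewer cells that express a gene and less RNA per cell cannot be told apart.

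Ratios within a library do not depend on its scaling, and they were taken to EcR. The level of usp was 0.727, 0.890 and 0.838 times that of EcR in replicates 1, 2 and 3, with overlapping intervals. The ratio of br to EcR was 1.81, 1.92 and 1.35, and that of Eip74EF 1.77, 2.32 and 1.26. For Eip75B it was 0.852, 1.53 and 0.280, and for Hr39 0.328, 0.875 and 0.209. Eip78C had 0.745, 2.91 and 0.00610 times the EcR level, and Hr4 had 0.238, 0.513 and 0.00258 times. Highest in replicate 2 and lowest in replicate 3 was therefore the order for 6 of the 9 genes set against EcR, namely br, Eip74EF, Eip75B, Eip78C, Hr4 and Hr39. These are 6 of the 7 with a mean of 10 FPKM or more, where 11.2% of all other genes at that level had this order. The ratios of ftz-f1 (0.0222, 0.0197 and 0.0460) and Eip93F (0.00300, 0.00266 and 0.00283) did not follow it.

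**Figure D3:**
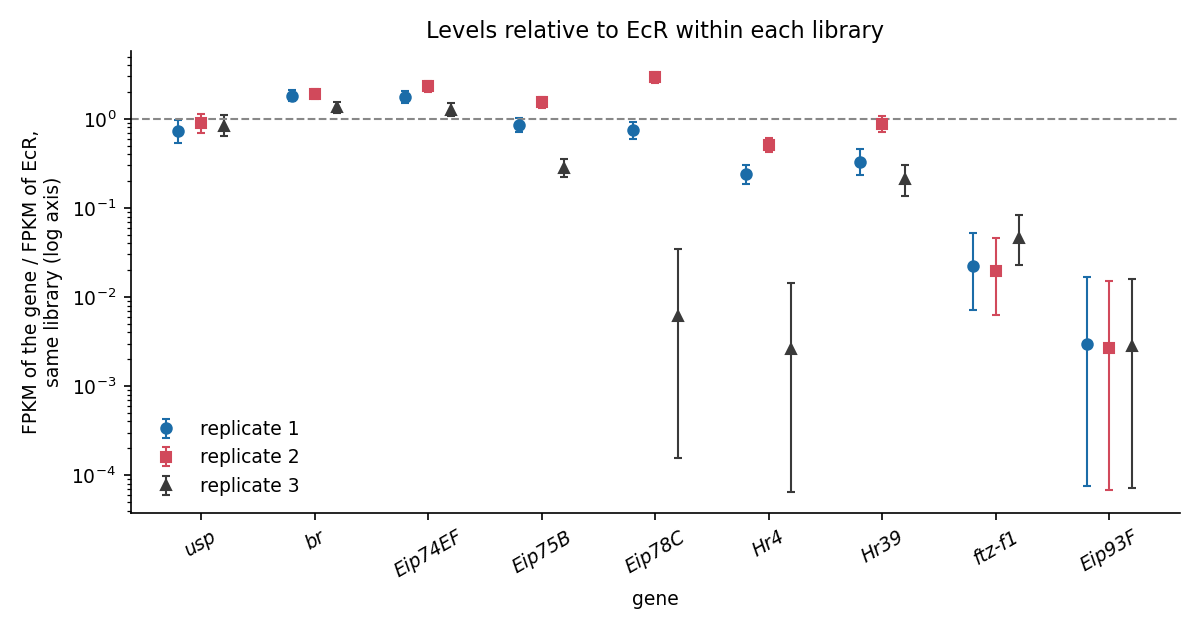
FPKM of each gene divided by the FPKM of EcR in the same library, on a log axis, with exact 95% counting intervals as bars and a dashed line at 1. The ratios of usp lie between 0.727 and 0.890, while those of Eip78C run from 0.00610 in replicate 3 to 2.91 in replicate 2.

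The size of the gap between replicates 2 and 3 differed widely among the members. As deposited, the ratio of replicate 2 to replicate 3 was 1.38 for EcR (1.17 to 1.63), 1.46 for usp (1.05 to 2.05), 1.96 for br (1.79 to 2.15) and 2.53 for Eip74EF (2.21 to 2.90). It was 5.78 for Hr39 (3.84 to 8.98) and 7.54 for Eip75B (6.12 to 9.36). For Hr4 and Eip78C, with 1 fragment in replicate 3, the ratios were 274 (48.7 to 10884) and 659 (118 to 26081). The interval lay above 1 for all 8 members with a mean of 10 FPKM or more, where 22.8% of the 3163 genes at that level with recovered fragments had such an interval. In ftz-f1 the ratio was 0.591 (0.161 to 1.84), and in Eip93F 1.30 (0.0166 to 102), so for neither was a difference detectable at this depth. Against replicate 1 in place of replicate 2, the interval lay above 1 for the same 8 members, where 20.7% of genes had one. As TPM, the intervals of usp included 1 in both comparisons, with 1.32 (0.948 to 1.85) against replicate 2 and, with the direction turned, 0.962 (0.668 to 1.38) against replicate 1. The interval of EcR included 1 against replicate 1 only, at 1.11 (0.934 to 1.32). These intervals compare libraries of 1 group and leave out variation between glands.

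Relative to EcR, the interval of replicate 2 to replicate 3 lay above 1 for 6 of 9 genes, and for 6 of the 7 with a mean of 10 FPKM or more, where 12.3% of genes at that level had such an interval. The ratio of ratios was 1.42 for br (1.17 to 1.72), 1.83 for Eip74EF (1.48 to 2.28), 4.19 for Hr39 (2.68 to 6.71) and 5.46 for Eip75B (4.16 to 7.19). It was 199 for Hr4 (34.6 to 7917) and 478 for Eip78C (83.7 to 18971). For usp it was 1.06 (0.730 to 1.55), so that the receptor subunits could not be told apart in this respect. Between replicates 2 and 1, the ratio relative to EcR was 3.91 for Eip78C (2.99 to 5.14), 2.66 for Hr39 (1.79 to 4.005) and 2.15 for Hr4 (1.58 to 2.95). It was 1.80 for Eip75B (1.44 to 2.24), 1.31 for Eip74EF (1.06 to 1.62) and 1.06 for br (0.875 to 1.28). In this order, from Eip78C to br, each interval overlapped that of the next gene. Ratios to EcR were chosen after the data had been seen.

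**Figure D4:**
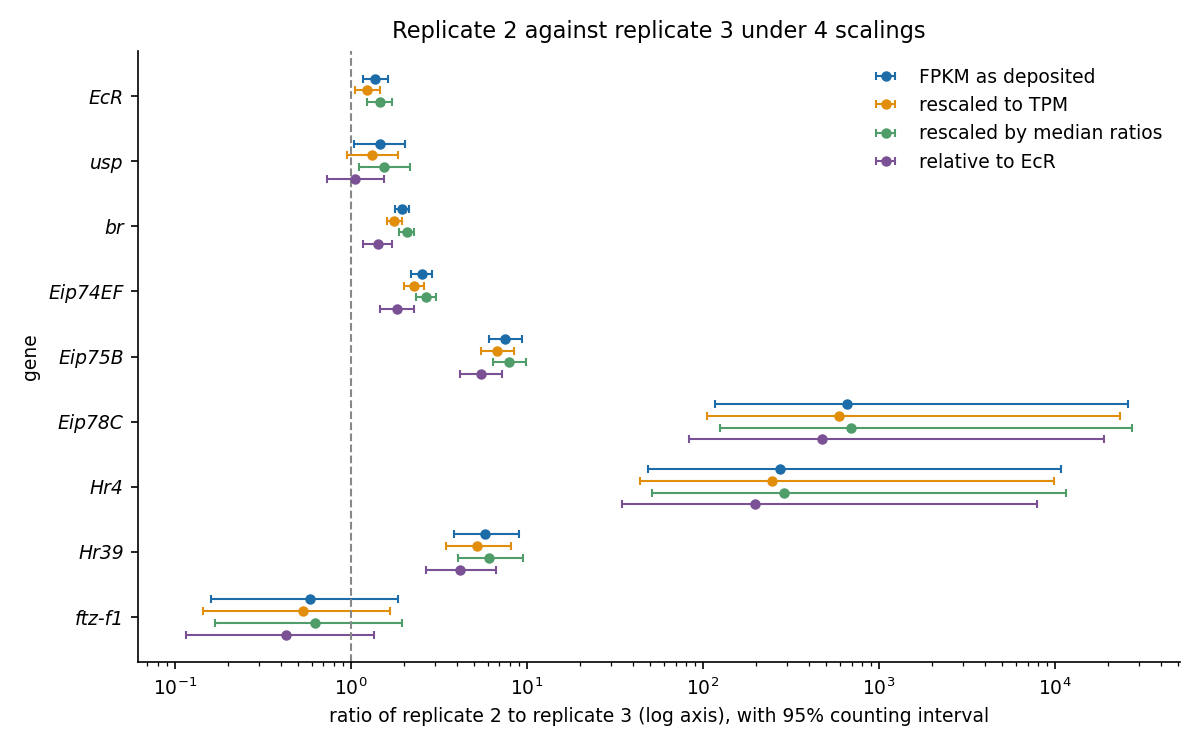
Ratio of replicate 2 to replicate 3 on a log axis for 9 genes, as deposited, rescaled to TPM or by median ratios, and relative to EcR, with exact 95% counting intervals and a dashed line at 1. EcR lies between 1.24 and 1.46 and usp between 1.06 and 1.55, Eip75B and Hr39 between 4.19 and 7.97, and Hr4 and Eip78C at 199 or more.

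Few genes around Eip78C and Hr4 were low in replicate 3, but few genes at large were either. The share was 9.4% of all genes with a mean of 10 FPKM or more, so the neighbour counts below only describe both loci. Most members are long genes with several annotated starts, and 1 gene-level value sums all of their transcripts. Eip75B spans 113.7 kb with 7 transcripts from 7 start sites, br 89.7 kb with 16 transcripts, EcR 81.2 kb with 6, and Hr4 66.0 kb with 9, while usp spans 3.51 kb with 2. The isoforms of br, EcR, Eip74EF and Eip75B, which are known to differ in timing and function, were therefore not separated. On X, Hr4 lies 30.8 kb from usp and 277 kb from br, and on 3L, Eip74EF and Eip75B lie 332 kb apart. Within 50 kb of Hr4, 12 genes had a mean of 10 FPKM or more, usp among them, and none was under 50% of the lower of the other libraries in replicate 3. PIG-K, which overlaps the end of Hr4 on the opposite strand, had 20.0, 14.9 and 17.6 FPKM. Around Eip78C, 1 of 6 such genes was low, CG43218, which lies inside Eip78C on the same strand without a shared exon base. It had 41.1 and 50.4 FPKM in replicates 1 and 2, from 14 and 25 fragments, and had no fragment in replicate 3, for which 3 fragments, taken as the upper limit, would be 4.65 FPKM. Ilk, 7.37 kb from Eip78C, had 25.2, 22.9 and 34.8 FPKM.

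The genes with the profile most like Eip78C were found by the distance between log2(FPKM + 1) values centred on each gene's mean, over 3 libraries and 3192 genes with a mean of 10 FPKM or more. The nearest was CG34213 (23.2, 84.9 and 0 FPKM in replicates 1, 2 and 3, distance 0.35), followed by CG42798 (30.4, 65.0 and 0 FPKM, distance 0.47). Next came comm3 (65.0, 137 and 1.21 FPKM, distance 0.51), CG1146 (19.5, 74.1 and 0 FPKM, distance 0.52) and Fatp3 (120, 234 and 3.41 FPKM, distance 0.67). CG34213 and CG42798 rest on 6 and 9 fragments in replicate 1. Of the members, Hr4 was the nearest to Eip78C, in place 23 at a distance of 1.65. Eip75B followed in place 91, Hr39 in place 139, Eip74EF in place 264, br in place 366, usp in place 645 and EcR in place 657. With 3 libraries such distances only describe shape.

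The wider pathway was followed in 7 lists with 75 genes, of which 73 had a value and 47 were at 1 FPKM or more in every library. Of all genes, 33.1% met this limit, a share to set beside each count below. Among 14 other nuclear receptor genes, 3 met this limit and the median of mean log2(FPKM + 1) was 0.90, against 4.53 for the members. Hr78 had 118 ± 21.2 FPKM, above each of the 10 members by mean, with 123, 136 and 94.8 FPKM in replicates 1, 2 and 3. However, 18.3% of the exon bases of Hr78 are shared with an antisense RNA, and counting was unstranded. Hnf4 had 7.75 ± 0.845 and Hr96 6.25 ± 3.20 FPKM (SD, n = 3). Hr3, an early-late receptor gene of the same cascade, was listed at 0, as were Hr38, knrl and eg, and 82.7% of the exon bases of Hr3 lie in exons of other genes.

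Genes for making, importing or inactivating the hormone (Eo and Cyp18a1 for the last) were near the level of genes at large. Of 11 with a value, 4 were at 1 FPKM or more in every library, where 33.1% of all genes were, and the list's median was 0.45, against 0.37. The importer gene Oatp74D, also called EcI, had 21.3 ± 5.72 FPKM, and Npc1a, which acts in sterol trafficking, had 17.7 ± 1.26. The highest was sro, known for hormone synthesis in the prothoracic gland, at 70.6 ± 12.8 FPKM (SD, n = 3), with 9.45% of its exon bases shared with Rnb. Other synthesis genes did not go with it: spo, spok and phtm were listed at 0, sad and dib rested on 2 and 1 fragments, and shd had 0.663, 1.82 and 4.56 FPKM. Prothoracic gland markers as a set, 4 with a value, had a summed level of 0, 2.25 and 0 FPKM.

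Partners of the receptor were broadly present. Of 13 coregulator genes 12 met the limit of 1 FPKM in every library, where 33.1% of all genes did, with a list median of 3.57. The corepressor genes Sin3A and HDAC1 had 31.0 ± 9.05 and 24.4 ± 6.19 FPKM (SD, n = 3). The coactivator gene tai had 32.2, 21.5 and 10.1 FPKM, lowest in replicate 3, as Sin3A, Smr, nej and Ncoa6 were. HDAC1 (26.4, 17.5 and 29.4 FPKM), Utx and brm were highest in replicate 3. All 6 chaperone genes met the limit, led by Hsc70-4 at 343 ± 46.1, Hsp83 at 90.5 ± 40.5 and p23 at 49.7 ± 18.4 FPKM.

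Genes of juvenile hormone, which opposes metamorphic responses to ecdysone, met the limit in 7 of 8 cases, at a list median of 2.84. Its receptor gene gce had 17.9, 18.5 and 8.56 FPKM, with 40.7% of exon bases shared with antisense RNAs. The epoxide hydrolase genes Jheh2 and Jheh1 had 11.2 ± 4.73 and 8.43 ± 4.92 FPKM, and 91.6% and 100% of their exon bases are shared with an antisense RNA.

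Among 12 further ecdysone-response genes, 9 met the limit, with a list median of 3.09. At a mean of 10 FPKM or more, 9.4% of all genes were low in replicate 3. Cth, the gene once named Eip55E, had 73.4 ± 28.4 FPKM and vri, a bZIP factor gene, 44.7 ± 14.3 (SD, n = 3). Eip63F-1, a calcium-binding protein gene, had 44.6, 73.7 and 6.56 FPKM, and the transporter gene E23, 15.2, 25.9 and 2.26 FPKM. Both were high in replicate 2 and low in replicate 3, as Eip75B was. They were the only 2 genes low in replicate 3 among the 7 of this list with a mean of 10 FPKM or more. Of the others at that level, Eip63E and MsrA had the same order of libraries without falling under the 50% limit. Cth was highest in replicate 3, and vri and crol were highest in replicate 1. Blimp-1, whose product represses ftz-f1, was listed at 0 in replicates 1 and 3 and at 0.487 FPKM in replicate 2, from 3 fragments.

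Cell death genes are targets of br, Eip74EF and Eip93F in later glands, and 6 of 9 met the limit, with a list median of 3.48. The inhibitor genes Diap1 and Diap2 had 87.3 ± 26.2 and 33.0 ± 5.02 FPKM (SD, n = 3). The death inducer gene rpr had 11.1, 38.1 and 2.35 FPKM from 32 fragments in all. Its relatives grim, with 75.9% of its exon bases shared with other genes, and skl were listed at 0. Another relative, hid, had 0, 2.39 and 1.05 FPKM from 11 fragments in all. In all 7 lists, 32 genes had a mean of 10 FPKM or more, and 7 of them (tai, Hsp83, gce, E23, Eip63F-1, rpr and Dronc) were under 50% of the lower of the other libraries in replicate 3, where 9.4% of all genes at that level were.

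**Figure D5:**
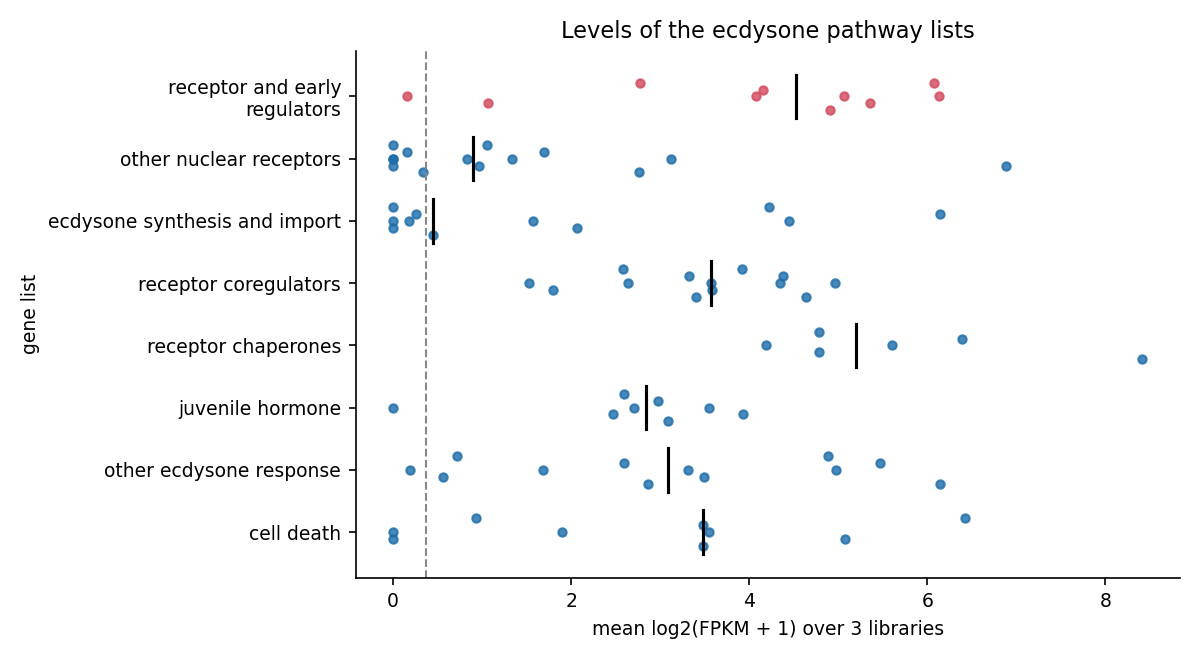
Mean log2(FPKM + 1) over 3 libraries of each gene (points) in the receptor and early regulator set and in 7 lists of the ecdysone pathway, with black lines at list medians and a dashed line at the median of all genes, 0.37. The members' median is 4.53, that of the chaperones 5.20, and that of the other nuclear receptors 0.90.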

How the data were processed

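The authors deposited FPKM values for 17278 genes in 3 libraries. HISAT2 and DESeq are named without versions, per the submitters' processing notes, and the deposited table is named as unstranded. Aligner settings, build, annotation and library totals: not given in the sources used here. Of the identifiers, 17142 were found in Ensembl release 115 (BDGP6.54) and 136 were not. FPKM times exon length gave whole multiples of 1 step per library, within 0.01, for 98.7% to 98.8% of values above 0. Recovered fragments served for depth and intervals, and no count model was fitted. Intervals were exact: Poisson for a level, conditional binomial for a ratio, conditional odds ratio relative to EcR. Step recovery was tested on simulated data.

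Members and lists were chosen with earlier results of these data known. Named genes were all members, the 3 highest of each list and the 5 nearest profiles to Eip78C. Others, the neighbours and the within-library ratios were chosen after values were seen. Older names were resolved for 5 listed genes, and nvd and Dor were not matched. Alternatives were pseudocounts, limits, filters, TPM, median ratios and each library left out. Promoter and protein sequences were not used here. Tools were scipy 1.17.1, numpy 2.4.6, pandas 2.3.3 and matplotlib 3.10.9 in Python 3.11.15.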

Additional observations from a re-analysis of the deposited data

How the results depend on the processing

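Of 87 values recomputed under alternatives, 75 kept their direction and size class. As TPM, members with a range of 1 or more went from 6 of 8 to 3 of 6, where 51.55% of genes had one. Those low in replicate 3 went from 5 of 8 to 2 of 6, where 5.62% of genes were. A threshold of 3-fold left 3 members low in replicate 3 (Eip75B, Eip78C and Hr4), where 5.04% of genes were. Members with a wide range were 5 of 8 without replicate 1, where 24.7% of genes had such a range. Without replicate 2 they were 5 of 7, where 19.02% of genes did, and without replicate 3 they were 2 of 8, where 10.01% did. Leaving out 1 library gave -0.0611 to 0.12 for Eip74EF minus br, negative without replicate 2, and 0.20 to 0.35 for EcR minus usp and 2.34 to 3.71 for Hr39 minus ftz-f1, both still positive. Detected members were 6 to 8 of 10 in those settings, where 34.5% to 35.7% of genes were detected. Members low in replicate 3 were 5 of 8 without replicate 1, where 14.1% of genes were. Without replicate 2 they were 5 of 7, where 9.84% of genes were, and br entered and Hr4 left. The tests pair genes within a library, and no pairing between conditions was possible because there is only 1 group of samples. Exact tests over 3 libraries cannot go below p = 0.25, and ftz-f1 and Eip93F, with 21 and 3 fragments in all, are limited by depth.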
